A study of Rattus norvegicus with 18 samples.

Results

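Heat shock proteins and chaperones were followed in testis RNA from rats under chronic sleep restriction (CSR) and from control rats, to ask whether sleep restriction changed the transcripts of the protein folding machinery. Members were chosen by gene symbol: the HSP70, HSP90, HSP110, small HSP and mitochondrial chaperonin genes, the J-domain genes (*Dnaja*, *Dnajb*, *Dnajc*), the *Bag* and *Pdia* genes, the CCT ring, and the lectin chaperones *Calr*, *Calr3*, *Canx* and *Clgn*. This gave 75 transcript rows of 72 genes out of 7016 rows and 6679 named genes. The symbol rule also took in *Hspbp1* and *Hspbap1*, which share the *Hspb* prefix but are cofactors and not small heat shock proteins.

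All rats were of the Wistar strain and aged 8 weeks, and both groups were whole testis, with 3 CSR and 3 control RNA libraries. The sources used here do not give how or for how long sleep was restricted, or whether each library came from its own animal. The p-values therefore measure the spread between these libraries, part of which may be technical. Control libraries 1 and 2 carry sample codes that differ in the last digit only. Values are FPKM, which scale fragment numbers to transcript length and to library size, so levels can be set side by side between genes; the read depth is unknown and the library medians lay between 3.69 and 3.97 FPKM. In whole tissue, fewer cells of a type and less RNA per cell cannot be told apart.

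Chaperones bind proteins that are unfolded or partly folded and release them in cycles driven by ATP. HSP70 proteins do this with J-domain partners, which deliver clients and start ATP hydrolysis, and with exchange factors of the HSP110 and BAG families, which release ADP; the CCT ring folds actin and tubulin; and calreticulin, calnexin and the PDI enzymes fold glycoproteins in the endoplasmic reticulum. Heat shock factors drive the cytosolic genes through heat shock elements, whereas folding stress in the reticulum acts through other elements. The testis is known for chaperones found mainly in germ cells, such as *Hspa2* of meiotic cells, *Hspa1l* of spermatids and *Calr3*.

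To show the control sequences behind these programmes, promoter windows were read from the RefSeq table of assembly GRCr8, which held 62 promoters for 61 of the member genes, each from 250 bases before the gene start to 50 after it. The heat shock element searched was GAA, any 2 bases, TTC, any 2 bases and GAA, on both strands, so that a match on the other strand reads TTC, GAA, TTC with the same gaps; a run of 4 units gives overlapping matches. It stood in 5 of the 62 member promoters (8.06%) and in 0.798% of all 33469 promoters. The members were *Hspa8*, *Hspe1*, *Hsph1*, *Cct4* and *Dnaja1*. The endoplasmic reticulum stress element, CCAAT followed by any 9 bases and CCACG, searched on both strands and always containing a CCAAT box, stood in 3 member promoters (4.84%), those of *Hspa5*, *Calr* and *Canx*, and in 0.0657% of all. A CCAAT box, with or without the rest of that element, stood in 41.9% of member promoters and 37.5% of all. The cyclic AMP element TGACGTCA stood in 6.45% and 1.83%, the members being *Cct4*, *Dnajc27*, *Dnajc30* and *Hsp90ab1*. A match describes letters only and is no evidence of binding. The lack of a match to these exact letters in this window is no evidence that an element is absent. The windows of 60 bases below lie before the gene start, run 5′ to 3′ on the gene's strand, and carry the matched element in capitals. They are shown as examples of the matches that lie before the gene start. The first 3 hold heat shock elements (*Hspa8*, chr8:50080435-50080494, plus strand; *Hspe1*, chr9:64084241-64084300, plus strand; *Hsph1*, chr12:10427308-10427367, plus strand), and the last 3 hold reticulum stress elements (*Hspa5*, chr3:38452952-38453011, plus strand; *Calr*, chr19:40213117-40213176, plus strand; *Canx*, chr10:35158048-35158107, minus strand).
Hspa8: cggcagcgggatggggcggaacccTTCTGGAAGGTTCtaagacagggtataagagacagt
Hspe1: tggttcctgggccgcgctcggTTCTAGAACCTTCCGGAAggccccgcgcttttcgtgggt
Hsph1: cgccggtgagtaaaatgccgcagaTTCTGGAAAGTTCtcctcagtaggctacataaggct
Hspa5: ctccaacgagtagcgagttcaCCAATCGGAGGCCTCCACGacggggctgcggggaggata
Calr: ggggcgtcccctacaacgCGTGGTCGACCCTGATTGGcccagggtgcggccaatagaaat
Canx: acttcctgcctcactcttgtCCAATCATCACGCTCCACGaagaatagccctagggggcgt

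No chaperone transcript was called between CSR and control testis. Of the 75 rows, 69 had at least 1 FPKM in at least 3 libraries and were tested with all other transcripts by limma on log2(FPKM + 1). None passed an adjusted p of 0.05 in either direction, against 25 calls among all 5657 tested transcripts, a background of 0.442% (0.23% higher and 0.212% lower in CSR). The smallest adjusted p of a member was 0.287. An unadjusted p under 0.05 was seen for 10 members, or 14.5%, and for 13.2% of all tested transcripts. The log2 fold change was positive for 31 members and negative for 38, with a median of -0.09, while the median over all tested transcripts was -0.06. Groups did not overlap for 10 members higher in CSR (14.5%, background 8.96%) and 8 members lower in CSR (11.6%, background 12.6%). With libraries scaled to equal medians these were 9 higher (13% against 7.69% of all) and 12 lower (17.4% against 15.3%). The count of calls rested on control library 3: without it 5 members were called (7.25%), against a background of 4.58%. Of these, 3 were higher in CSR (4.35%, background 2.99%) and 2 lower (2.90%, background 1.59%). Without CSR library 1, 1 member was called, *Hspa9*, against a background of 0.354%, or 0.23% for calls lower in CSR.

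**Figure D1:**
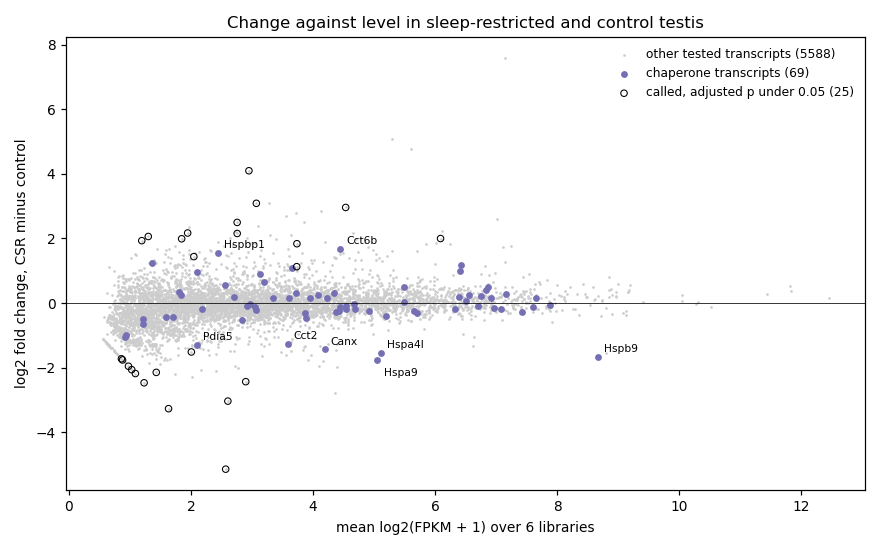
Log2 fold change (CSR minus control, on the log2(FPKM + 1) scale) against the mean level over 6 libraries for the 5657 tested transcripts, with the 69 chaperone transcripts in purple and the 25 called transcripts circled. The chaperone points lie within the grey cloud and none is circled; the members farthest from 0 are named.

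Chaperones were among the abundant transcripts of the testis. The median of the member means was 17.9 FPKM, against 3.99 FPKM over all rows, and 15 members (20%) had a mean of 100 FPKM or more, as did 3.55% of all rows. The 10 most abundant members made up 53.3% of the summed member FPKM. Germ cell forms took most of the top places: *Hspb9*, a small heat shock protein of the testis, was first and *Hspa1l* had rank 3. *Dnajb3*, *Dnajc5b*, *Calr3* and *Dnajb7* were also among these 10. The others were *Hsp90aa1*, at rank 2, *Bag1*, *Calr* and *Hspa5*.

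**Figure D2:**
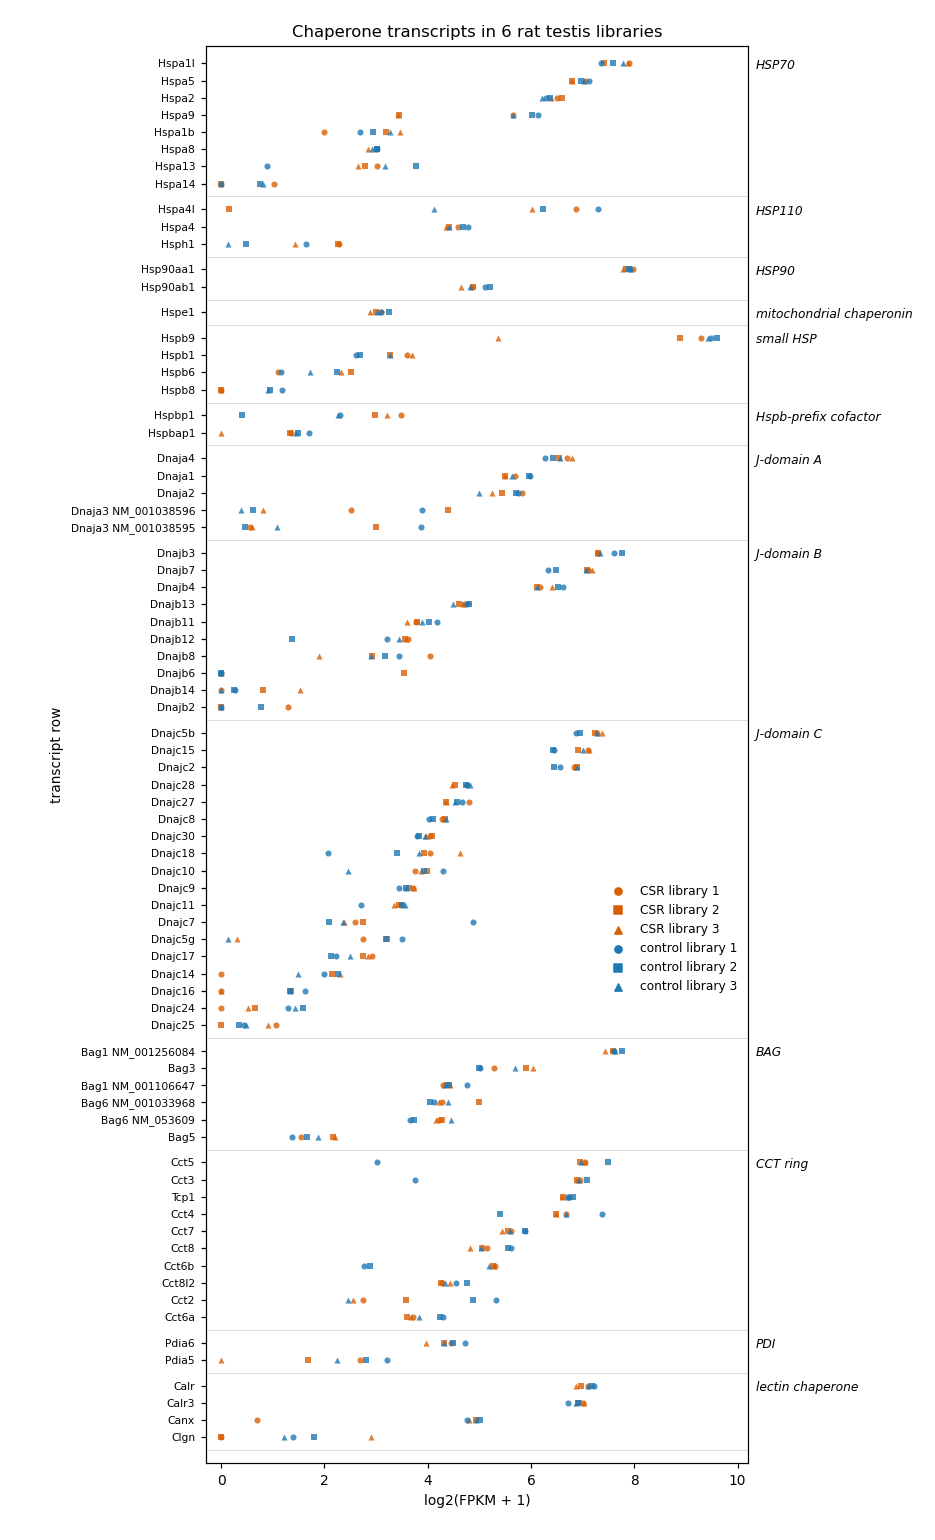
Levels of the 75 chaperone rows by family, with log2(FPKM + 1) on the x axis and 1 point per library (CSR orange, control blue, library number by shape). Most rows hold their 6 points close together, while *Hspb9*, *Hspa4l*, *Canx*, *Cct3* and *Cct5* each have 1 library far below the rest. *Hspa4l* is also low, to a lesser degree, in control library 3.

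In the HSP70 family, the transcripts with the highest mean levels were *Hspa1l*, *Hspa5* and *Hspa2*, followed by the mitochondrial *Hspa9*. *Hspa1l*, the HSP70 of spermatids, read 238, 170 and 235 FPKM in CSR libraries 1 to 3 and 162, 191 and 218 in control libraries 1 to 3, with overlapping groups. *Hspa2*, needed for male meiosis, read 89.0, 96.0 and 82.3 FPKM under CSR and 77.4, 81.6 and 73.0 in control. Its groups did not overlap by a narrow margin, and the log2 fold change of 0.20 (95% interval -0.03 to 0.43) had an adjusted p of 0.389 by limma. *Hspa5*, the BiP chaperone of the reticulum, read 131, 110 and 110 FPKM under CSR and 137, 124 and 129 in control, with a log2 change of -0.16 with a 95% interval of -0.41 to 0.09.

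*Hspa8*, the constitutive cytosolic HSP70, was listed at 6.97, 7.15 and 6.21 FPKM under CSR and 7.07, 7.06 and 6.58 in control, with a log2 change of -0.03 and a 95% interval of -0.32 to 0.27. The row of *Hspa8* is one of 4 member rows whose values carry more than 6 decimals, unlike most rows of the table, and how such values were made is not given. *Hspa1b*, a heat-inducible HSP70 with a near-identical neighbour copy, read 2.97, 8.07 and 10.02 FPKM under CSR and 5.46, 6.64 and 8.62 in control, and how the authors' counting split the copies is unknown. All 3 control values of the inducible form lay within its CSR range.

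*Hspa9*, the mitochondrial HSP70 that pulls proteins through the inner membrane, read 49.2, 9.81 and 9.69 FPKM under CSR and 69.6, 64.1 and 49.5 in control. CSR libraries 2 and 3 were low and CSR library 1 lay just under the lowest control. The log2 fold change was -1.77 (standard error, SE, 0.62, adjusted p 0.363 by limma), and without CSR library 1 it was -2.52 with an adjusted p of 0.0253, in a range of 0.0253 to 0.696 over the alternatives. *Hspa13*, a microsomal HSP70 relative, read 7.06, 5.89 and 5.25 FPKM under CSR and 0.858, 12.6 and 7.96 in control, so that its highest and lowest values were both in control.

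The HSP110 family of exchange factors held 3 transcripts with unlike patterns. *Hspa4l*, a form enriched in the testis, read 116, 0.115 and 64.2 FPKM under CSR and 157, 73.8 and 16.3 in control. CSR library 2 was near 0 while both other CSR libraries were within the control range. *Hspa4*, its widely expressed relative, was even, at 23.1, 20.3 and 19.5 FPKM under CSR and 26.6, 24.6 and 20.2 in control. *Hsph1*, which is strongly heat-inducible and carries the heat shock element printed above, read 3.83, 3.79 and 1.68 FPKM under CSR and 2.10, 0.387 and 0.0993 in control. Its groups overlapped in 1 library of each, with a log2 fold change of 1.24 (95% interval 0.10 to 2.38) and an adjusted p of 0.367 by limma.

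Both HSP90 transcripts overlapped between groups. *Hsp90aa1*, the inducible HSP90 that germ cells hold at a high level, read 249, 228 and 218 FPKM under CSR and 242, 237 and 239 in control, with a log2 change of -0.05 with a 95% interval of -0.25 to 0.16; its row also carries extra decimals. *Hsp90ab1*, the constitutive form, read 28.0, 28.2 and 23.8 FPKM under CSR and 33.5, 35.7 and 27.0 in control. *Hspe1*, the lid of the mitochondrial chaperonin, was the single member of its family with a row and read between 6.33 and 8.54 FPKM in all libraries.

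Among the small heat shock proteins, *Hspb9* read 624, 469 and 39.9 FPKM under CSR and 712, 774 and 687 in control. The groups did not overlap, but CSR library 3 stood more than 10-fold under the other CSR libraries. The log2 change of -1.66 (SE 1.01, adjusted p 0.445 by limma) was -0.42 without that library. *Hspb1*, a stress-inducible guard of the actin skeleton, read 11.2, 8.63 and 11.9 FPKM under CSR and 5.12, 5.47 and 8.68 in control. *Hspb1* in control library 3 was just above the lowest CSR library, and the log2 fold change was 0.66 (95% interval 0.11 to 1.20, adjusted p 0.363 by limma). *Hspb6*, a small HSP of muscle, read between 1.13 and 4.69 FPKM with overlapping groups. *Hspb8*, a partner of *Bag3* in selective autophagy, had a listed value of 0 in each CSR library and read 1.26, 0.927 and 0.886 FPKM in control. It did not pass the filter, and with no filter its adjusted p was 0.125 by limma. No fold is given for *Hspb8*, whose CSR libraries are all listed at 0, and a listed 0 may mean that the estimate failed.

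Both cofactors with the *Hspb* prefix had groups that did not overlap, in opposite directions. *Hspbp1*, an exchange factor of HSP70, read 10.1, 6.83 and 8.31 FPKM under CSR and 3.92, 0.325 and 3.80 in control. The log2 fold change was 1.57 (SE 0.54, adjusted p 0.363 by limma), and it was 0.94 without control library 2, the lowest. *Hspbap1*, which binds *Hspb1* protein, read 1.56, 1.52 and 0 FPKM under CSR and 2.23, 1.81 and 1.72 in control, with a log2 fold change of -0.65 (SE 0.41, adjusted p 0.463 by limma) that was -0.20 without CSR library 3, the one listed at 0. It was -1.64 with a pseudocount of 0.1 and -0.42 with quantile normalization.

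In the J-domain A family 3 of 5 tested rows were positive. *Dnaja4* read 103, 92.0 and 109 FPKM under CSR and 76.0, 85.4 and 93.9 in control, while *Dnaja1*, a partner of cytosolic HSP70, read 50.2, 44.2 and 44.4 and 61.8, 61.6 and 48.7. *Dnaja2* read between 30.8 and 55.8 FPKM, its lowest value in control and its highest in CSR. Both rows of *Dnaja3*, a mitochondrial J-domain protein, were high in the same libraries: their sum was 5.17, 27.1 and 1.27 FPKM under CSR and 27.3, 0.914 and 1.41 in control. CSR library 2 and control library 1 were high and both groups covered nearly the same range.

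Among the J-domain B genes, the germ cell forms *Dnajb3* and *Dnajb7* differed in sign. *Dnajb3*, a spermatid J-domain protein, read 156, 155 and 154 FPKM under CSR and 193, 217 and 159 in control. *Dnajb7* read 135, 135 and 144 FPKM under CSR and 78.9, 88.8 and 132 in control, with a log2 change of 0.50 (95% interval 0.02 to 0.97, adjusted p 0.372 by limma). Both sets of groups were apart by a narrow margin, since control library 3 lay beside the CSR values and control libraries 1 and 2 stood away.

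Other members of this family included reticulum and flagellar proteins. *Dnajb13*, a radial spoke protein of the sperm flagellum, read between 21.3 and 26.9 FPKM in all libraries. *Dnajb11*, a partner of BiP, read 12.6, 12.8 and 11.1 FPKM under CSR and 17.1, 15.2 and 13.9 in control, groups that did not overlap, with a log2 fold change of -0.32 and an adjusted p of 0.372 by limma. *Dnajb12*, a J-domain protein of the reticulum membrane, read 11.3, 10.8 and 10.9 FPKM under CSR and 8.32, 1.59 and 9.94 in control. Its log2 change of 0.91 (SE 0.54, adjusted p 0.441) was 0.25 without control library 2 and 0.57 with control libraries 1 and 2 averaged as 1. *Dnajb4* read between 68.0 and 96.6 FPKM and *Dnajb8* between 2.72 and 15.5, both with overlapping groups.

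The J-domain C family, the largest with 18 rows, had 10 positive and 7 negative tested rows, a median log2 fold change of 0.17, and 4 rows higher and 1 lower in CSR without overlap (23.5% and 5.88%, against 8.96% and 12.6% of all tested transcripts). *Dnajc5b*, a testis relative of the cysteine string protein of vesicles, read 154, 150 and 165 FPKM under CSR and 115, 122 and 154 in control. *Dnajc15*, of the mitochondrial inner membrane, read 136, 119 and 138 FPKM under CSR and 86.5, 85.2 and 127 in control. *Dnajc2*, which works at the ribosome exit, read 112, 118 and 115 FPKM under CSR and 93.9, 86.6 and 117 in control. In these 3 transcripts control library 3 again lay among the CSR values and control libraries 1 and 2 below them.

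Of the rows with groups apart, *Dnajc18* read 15.5, 14.2 and 23.7 FPKM under CSR and 3.18, 9.55 and 13.3 in control, with a log2 change of 1.10 (SE 0.47, adjusted p 0.378 by limma). That value was 0.58 without control library 1. *Dnajc17* read 6.60, 5.70 and 6.17 FPKM under CSR and 3.70, 3.36 and 4.66 in control, with a log2 change of 0.55 (SE 0.16, adjusted p 0.352). *Dnajc9*, which chaperones histones, and *Dnajc30*, a mitochondrial protein, were the other rows higher in CSR without overlap, at 11.5 to 12.2 against 9.87 to 10.9 FPKM and 14.6 to 16.0 against 12.9 to 14.5 FPKM.

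*Dnajc24*, which serves diphthamide synthesis on elongation factor 2, had the smallest p of the 69 tested members. It read 0, 0.582 and 0.430 FPKM under CSR and 1.44, 1.99 and 1.70 in control, so all values were low. The log2 fold change was -1.04 (SE 0.27, unadjusted p 0.00843, adjusted p 0.287 by limma). It rests in part on a listed 0 and depended on the scale, at -2.44 with a pseudocount of 0.1 and -0.63 with quantile normalization. Over all rows of the table, the CSR libraries held 1183, 1000 and 1415 values listed at 0 and the control libraries 330, 275 and 423. Among the member rows these were 7, 5 and 7 in CSR and 3, 1 and 3 in control. The part of this difference in zeros in the low values of *Dnajc24*, *Hspbap1* and *Hspb8* was not tested.

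The other J-domain C rows overlapped between groups. *Dnajc28*, *Dnajc27*, *Dnajc8* and *Dnajc11* had log2 fold changes between -0.19 and 0.17. *Dnajc10*, a reductase of the reticulum, read 12.5, 14.9 and 13.6 FPKM under CSR and 18.7, 14.3 and 4.46 in control. *Dnajc7*, which binds both HSP70 and HSP90, read 28.5 FPKM in control library 1 and between 3.23 and 5.67 in the other 5 libraries.

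*Dnajc5g*, a testis relative of *Dnajc5b*, was among the members that varied most within controls. It read at least 5.68 FPKM in libraries 1 and 2 of both groups, 0.243 in CSR library 3 and 0.0933 in control library 3, so the groups overlapped. *Dnajc14* and *Dnajc16* were listed at 0 in CSR library 1, and *Dnajc16* also in CSR library 3.

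**Figure D3:**
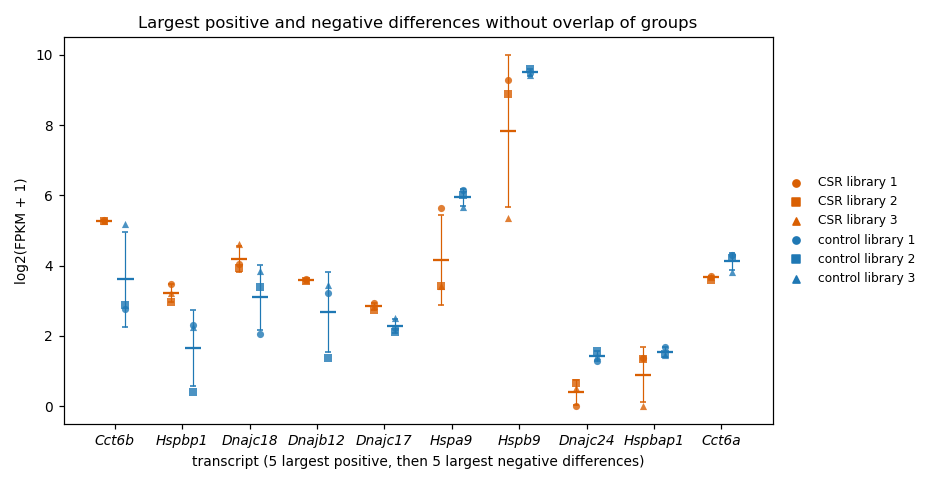
The 5 largest positive and 5 largest negative differences among members whose groups did not overlap, as log2(FPKM + 1) per library, with bars at the group mean and whiskers of 1 SD (n = 3 each). In *Cct6b* control library 3 sits beside the CSR libraries, in *Hspb9* CSR library 3 sits apart, and in *Hspa9* CSR library 1 sits near the controls.

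BAG proteins release ADP from HSP70 and link it to other fates. *Bag1* has 2 rows, and their sum was 211, 212 and 193 FPKM under CSR and 221, 237 and 217 in control. *Bag3*, a heat-inducible factor of selective autophagy, read 37.8, 58.9 and 65.1 FPKM under CSR and 31.4, 30.9 and 50.3 in control, with a log2 change of 0.51 with a 95% interval of -0.15 to 1.18. *Bag6*, needed for meiosis and for inserting tail-anchored proteins, summed over both rows to 35.8, 49.2 and 34.4 FPKM under CSR and 28.0, 27.9 and 41.1 in control. *Bag5* read between 1.58 and 3.59 FPKM with overlapping groups. For *Bag3* and *Bag6* control libraries 1 and 2 were the lowest of the 6.

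The CCT ring is built from 8 different subunits in equal number, and its transcripts were far from even. Within single libraries the most abundant of the 8 exceeded the least abundant by 10.1-fold to 28.0-fold. *Tcp1*, the first subunit, was steady, at 105, 97.1 and 95.9 FPKM under CSR and 104, 111 and 104 in control. *Cct3* read 122, 117 and 118 FPKM under CSR and 12.4, 135 and 120 in control, and *Cct5* read 131, 123 and 130 and 7.12, 179 and 125. Control library 1 thus held low values of both while it held the highest *Cct4*, at 164 FPKM, against 41.1 in control library 2 and 88.1 to 101 in the other libraries.

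Paralogs of the ring's sixth subunit differed in opposite directions between libraries. *Cct6b*, its testis form, read 38.6, 37.5 and 37.8 FPKM under CSR and 5.76, 6.37 and 35.3 in control, and *Cct6a*, the form of other tissues, read 12.1, 11.1 and 11.8 and 18.7, 17.7 and 13.2. The ratio of *Cct6b* to *Cct6a* was 3.20, 3.37 and 3.20 in CSR and 0.309, 0.359 and 2.66 in control. Neither transcript was called: *Cct6b* had a log2 change of 1.68 (SE 0.64, adjusted p 0.368 by limma) and *Cct6a* one of -0.46 (SE 0.15, adjusted p 0.363). Without control library 3 they were called, at 2.46 (adjusted p 0.00222) and -0.60 (adjusted p 0.0379); over the alternatives their adjusted p ranged from 0.00222 to 0.696 and from 0.0379 to 0.696.

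*Cct2* was likewise split within the controls, at 5.69, 10.9 and 4.83 FPKM under CSR and 39.0, 28.5 and 4.45 in control. *Cct7* read between 42.4 and 58.2 FPKM and *Cct8* between 27.0 and 47.7, and for both control libraries 1 and 2 were the highest. *Cct8l2*, a relative of the eighth subunit, read between 18.1 and 26.1 FPKM. The 8 subunits summed to 518 to 558 FPKM under CSR and to 451, 616 and 547 FPKM in control.

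**Figure D4:**
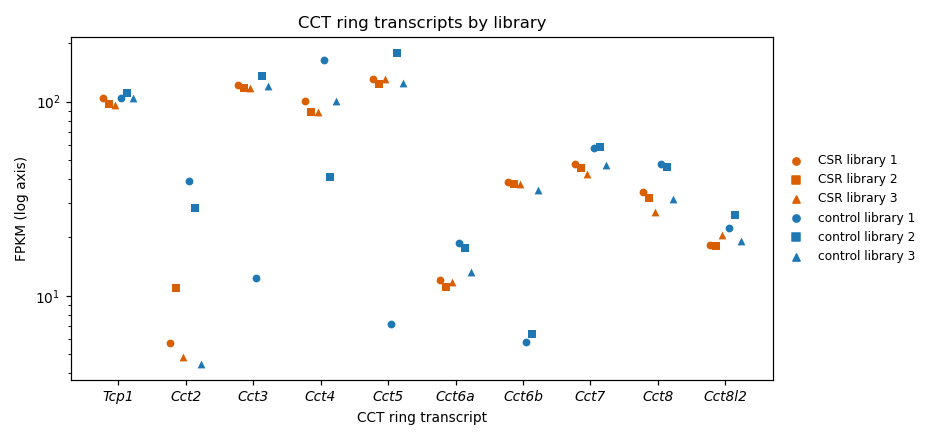
FPKM of the CCT ring transcripts on a log axis, with 1 point per library (CSR orange, control blue, library number by shape). Control libraries 1 and 2 stand apart from the other 4 libraries in *Cct2* and *Cct6b*, and control library 1 alone in *Cct3* and *Cct5*.

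Lectin chaperones and PDI enzymes of the reticulum gave no call. *Calr*, calreticulin, read 136, 124 and 116 FPKM under CSR and 148, 145 and 136 in control. *Calr3*, its testis form needed for sperm migration, read 127, 121 and 129 FPKM under CSR and 104, 120 and 116 in control, with groups apart by a small margin and a log2 fold change of 0.16 (adjusted p 0.42 by limma). *Canx*, calnexin, read 0.617, 29.4 and 26.9 FPKM under CSR and 26.2, 31.3 and 29.7 in control, so that CSR library 1 alone was low. *Clgn*, the testis calnexin that folds sperm surface proteins, was listed at 0, 0 and 6.42 FPKM under CSR and 1.61, 2.47 and 1.34 in control. *Pdia6* read between 14.7 and 25.2 FPKM and *Pdia5* between 0 and 8.23, with overlapping groups.

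By programme, the fixed list of heat-inducible members named 16 symbols, of which 12 had rows. Of its 11 tested rows 3 were positive and 8 negative, with a median log2 fold change of -0.09. Over all tested transcripts 44.0% were positive and the median was -0.06. The list also held the constitutive forms *Hspa8* and *Hsp90ab1* and the ring subunit *Tcp1*, each of them negative. The other negative rows were *Hspa1b* (-0.09), *Hsp90aa1* (-0.05), *Hspe1* (-0.13), *Dnaja1* (-0.30) and *Dnajb4* (-0.185). Its positive rows were *Hsph1* (1.24), *Hspb1* (0.66) and *Bag3* (0.51). The 5 members with a match to the heat shock element searched gave values on both sides of 0, from -0.30 for *Dnaja1* to 1.24 for *Hsph1*. Of 17 reticulum symbols listed, 10 had rows, with 3 positive and 7 negative and a median of -0.22. The 13 testis-enriched members had 6 positive and 7 negative rows and a median of -0.02. Of 11 mitochondrial symbols listed, 7 had rows, and their 8 rows were evenly divided, with a median of 0.02. No member of these lists was called.

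Of the 84 other genes of folding and its stress responses that were listed, 58 had rows and 56 rows were tested. None was called by limma, against 0.442% of all tested transcripts. An unadjusted p under 0.05 was seen for 3 of the 56 rows, and for 13.2% of all tested transcripts. Of the 56 rows, 27 were positive and 29 negative (48.2% positive, against 44.0% of all). The heat shock factor *Hsf1* read 3.17, 4.37 and 4.44 FPKM under CSR and 2.93, 3.19 and 2.72 in control, with an adjusted p of 0.411. In the unfolded protein response 2 of 11 tested rows were positive (18.2%, against 44.0% of all tested transcripts) and 9 negative. Their median was -0.23, against -0.06 over all, and 0 of the 11 had an unadjusted p under 0.05 by limma. *Hyou1*, the HSP110 of the reticulum, was negative in both its rows (-0.64 and -0.43 on the log2 scale, adjusted p 0.392 and 0.381). *Pdilt*, a PDI of spermatids, read between 111 and 128 FPKM in all libraries. *Ptges3*, the p23 partner of HSP90, singled out after its values were seen, was listed at 52.0 and 50.2 FPKM in control libraries 1 and 2 and at 0 in the other 4 libraries.

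Across the members, control library 3 was nearer to the CSR libraries than to the other controls. The median absolute difference in log2(FPKM + 1) over the 69 tested members was 0.17 between control libraries 1 and 2 and 0.12 to 0.20 between control library 3 and each CSR library. It was 0.33 and 0.39 between control library 3 and the other controls, and 0.33 to 0.53 between those and the CSR libraries. Over all tested transcripts the same values were 0.16, 0.19 to 0.24, 0.28 and 0.28, and 0.33 to 0.40. Its distance to the CSR mean was smaller than that to the other controls' mean for 48 of 69 members (69.6%) and 58.6% of all tested transcripts. For control libraries 1 and 2 in turn this held for 18 and 15 members (26.1% and 21.7%) and for 29.2% and 28.9% of all.

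Of the 8 spermatid markers with rows, 5 were lower in control libraries 1 and 2 than in all other libraries (*Acrv1*, *Oaz3*, *Prm1*, *Prm2* and *Tnp2*). The margins were unlike in size. *Acrv1* read 99.1 and 94.95 FPKM there and 101.9 or more elsewhere, *Tnp2* 2668 and 3186 against 3816 or more, and *Prm2* 0.750 and 0.407 against 145 or more. *Spaca1* was higher in control libraries 1 and 2, and *Gapdhs* and *Tnp1* were not split in this way. The sum of the 8, most of it from a few very abundant transcripts, came to between 16650 and 19460 FPKM under CSR and 9691, 11150 and 17850 FPKM in control libraries 1 to 3. The protamine *Prm1* stood at 0.0934 and 0.0981 FPKM in control libraries 1 and 2 and at 878 to 3029 FPKM in the other 4 libraries. The 3 spermatocyte markers summed to between 129 and 175 FPKM under CSR and between 84.3 and 168 in control. Most of this sum came from *Sycp3*, which overlapped between groups. *Pgk2* and *Hormad1* went opposite ways without overlap, and neither was called. *Pgk2* read 5.42 to 11.0 FPKM under CSR and 2.15 to 3.79 in control, and *Hormad1* 11.8 to 18.35 and 20.4 to 32.5. The 5 Sertoli cell markers summed to between 35.0 and 41.6 FPKM over all libraries, and the 4 Leydig cell markers to between 66.4 and 117. The 2 spermatogonial markers summed to between 24.0 and 36.1 FPKM and the 3 peritubular ones to between 12.7 and 19.8. Of macrophage markers only *Cd68* had a row, at 0 to 0.834 FPKM, and of blood markers only *Hbb*, at 0 in 5 libraries and 2.53 in CSR library 2. The part of the spermatid markers in the values of *Cct6b*, *Cct2*, *Dnajb7* and *Dnajc15* was not tested.

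Some chaperone rows had 1 or more libraries far from the rest. By a rule chosen after the values were seen, a library more than 2 log2 units from the median of the other 5, 17 of 69 tested members (24.6%) had at least 1 such library, against 8.87% of all tested transcripts. Among rows with a mean of at least 5 FPKM the shares were 23.7% of members and 8.82% of all. The difference from the background depended on the scale: with a pseudocount of 0.1 the shares were 33.3% of members and 26.3% of all. The departures fell in every library: 14 rows had a library below the rest and 4 a library above, 1 of them having both. Both rows of *Dnaja3* are counted. Some rows had more than 1 such library, as in *Cct2* and *Cct6b* (control libraries 1 and 2) and *Hspa9* (CSR libraries 2 and 3). *Hspa4l* in CSR library 2, *Canx* in CSR library 1, *Hspb9* in CSR library 3 and *Cct5* in control library 1 were more than 4 log2 units below the median of the others. Such rows widen the spread within a group, and the standard errors of *Hspa4l* and *Cct5* were 1.87 and 1.14, against 0.08 for *Tcp1*.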

How the data were processed

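The authors deposited FPKM values for RefSeq transcripts, with a column for each RNA library. The rn6 build and the tools Trimmomatic, HISAT2 and StringTie are named, per the submitters' processing notes; their versions and how rows were selected were not found in the sources at hand. Libraries were made from poly(A) RNA, per the labels' protocols. Low values showed no steps of whole reads (at most 3 of 187 low rows shared a ratio between control libraries 1 and 2 within 0.1%), so the depth is unknown. Accessions were matched to symbols in the RefSeq gene table of GRCr8; 6907 matched and 109 did not.

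The filter kept rows reaching 1 FPKM in 3 or more libraries. The test was limma (version 3.58.1, R 4.3.3) on log2(FPKM + 1) with a trended variance prior; p-values were adjusted by Benjamini-Hochberg over 5657 rows and called at 0.05. This scale understates changes of low transcripts. Alternatives were other pseudocounts and filters, equal medians, quantile normalization, other variance settings, control libraries 1 and 2 averaged as 1, the replicate block and leaving out each library. The fit was tested on simulated data with known changes and independent normal noise. Those data held no library set apart by design, so the test does not cover such rows here.

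Members and lists were chosen with earlier results of these data known. Full statistics were given for members past the threshold and for the 5 largest positive and 5 largest negative differences among members whose groups did not overlap; values were given for the 3 most abundant members of each family, members of fixed lists, members listed at 0 in a whole group, those varying most among controls and genes with 2 rows. Tests printed for other members were chosen after their values were seen. The 12 methylation libraries were not analysed here, since members could not be placed on rn6 coordinates.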

Additional observations from a re-analysis of the deposited data

How the results depend on the processing

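No member was called in 15 of the 17 alternatives. Leaving out each library in turn gave between 0 and 5 called members; the 5 came without control library 3 (*Cct2*, *Cct6a*, *Cct6b*, *Dnajb7* and *Dnajc15*) and 1 without CSR library 1 (*Hspa9*). The members' median log2 fold change of -0.086 lay between -0.121 and -0.006 when libraries were left out. It was -0.020 with at least 1 FPKM in all 6 libraries and -0.025 with a mean of at least 5 FPKM, where fewer rows were tested. Members without overlap numbered between 10 and 19 higher and between 9 and 21 lower when a library was left out, which by construction makes overlap rarer; over all transcripts these were 11% to 21.2% and 14.7% to 27%. None of the named members changed sign. The 17 members with a library more than 2 log2 units from the others became 28 (40.6%, and 32.2% of all tested transcripts) at 1 unit and 8 (11.6% and 2.55%) at 3 units, and 23 (33.3% and 26.3%) with a pseudocount of 0.1, alternatives added after the data were seen. Calls over all transcripts ranged from 0 with the replicate block to 259 without control library 3. Replicate numbers did not pair the libraries: correlations of deviations were 0.0323, 0.0090 and 0.0418 for numbers 1 to 3, and CSR library 2 correlated better with control library 1 than with its own number. With the replicate block 0 members were called and the median was -0.086. Depth is unknown, and with 3 libraries a group the spread of single libraries sets what can be called.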

Other observations

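Members that did not pass the filter were mostly J-domain genes. *Dnajb6*, a suppressor of protein aggregation, was listed at 10.7 FPKM in CSR library 2 and at 0 in the other 5 libraries. *Dnajb2*, *Dnajb14*, *Dnajc25* and *Hspa14* stayed under 2 FPKM in every library. Of the protein-coding symbols of GRCr8 that meet the rule, 31 of 103 had no row matched to them, among them *Hspa1a*, *Hspd1*, *Hsp90b1* and *Pdia3*. Neither the mitochondrial chaperonin ring nor the main PDI enzymes are therefore described.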
